A study of Rattus norvegicus with 16 samples.

Results

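The ABC efflux pumps described here carry drugs, toxins and conjugated metabolites out of cells. They were taken by gene name from the deposited count table of the series, which listed 32623 gene records. Of the 10 pump names sought, 8 matched a record: Abcb1a, Abcc1, Abcc2, Abcc3, Abcc4, Abcc5, Abcc6 and Abcg2. Counts of Abcb1b and Abcb4 were not analysed here. Of the 8, 6 had enough counts to be tested in liver and 5 in bone marrow.

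All rats were female Big Blue rats, a strain transgenic for a vector that carries the cII and lacI genes as mutation reporters. They were 6 weeks old on arrival and were dosed by gavage after 1 week of acclimation. The control groups received 0 mg/kg/day and the treated groups 10 mg/kg/day of N-nitrosodiethylamine (NDEA) for 28 days, and tissue was collected 3 days after the last dose. NDEA is a nitrosamine that cytochrome P450 enzymes convert into a product that alkylates DNA, and the liver is a known site of its tumours. Liver control, liver NDEA, marrow control and marrow NDEA had 4 libraries each, 16 in all, drawn from 6 treated rats per dose. Whether equally numbered libraries share a rat or a cage is not in the labels, so p-values here measure the spread among the 4 libraries of a group.

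ABC transporters use ATP to move their substrates across a membrane, and in hepatocytes they form the last step of detoxification. P-glycoprotein (Abcb1a), MRP2 (Abcc2) and BCRP (Abcg2) sit in the canalicular membrane and pump into bile, whereas MRP3 (Abcc3) and MRP4 (Abcc4) sit in the basolateral membrane and pump back into blood. In bone marrow, BCRP is known from primitive blood cells and MRP1 (Abcc1) from leukocytes, where it exports leukotriene C4.

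The assay reads polyadenylated RNA near its 3′ end, and how reads were assigned to gene records is not given in the sources used here; no level was compared between genes. Liver libraries held 5000844 to 6863592 counts and marrow libraries 2162182 to 5705705, the lowest in marrow control 1. The labelled tissues carried their markers: 7 hepatocyte markers summed to between 90206 and 118416 CPM (counts scaled to a common library total) in the liver libraries and to between 23.1 and 87.2 CPM in the marrow libraries. In liver, 6 cycling-cell markers summed to between 7.19 and 49.4 CPM in controls and between 186 and 299 CPM with NDEA, and 6 stellate-cell and fibroblast markers to between 214 and 337 CPM and between 438 and 533 CPM. Mitochondrially encoded genes took 16.2% to 20.6% of counts in liver controls and 20.1% to 22.4% with NDEA. In marrow the mitochondrial share ran from 6.41% to 13.0% in controls and from 8.37% to 15.8% with NDEA; libraries NDEA 3 and NDEA 4 had the highest shares, 15.2% and 15.8%, and the fewest detected genes, 10144 and 9101.

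Abcc2 and Abcc6 were counted almost solely in liver and Abcc1 solely in marrow, and their promoters are printed for that reason. The sequences come from RefSeq on the GRCr8 build and run from 250 bases before to 50 bases after the annotated start, 5′ to 3′ on the strand of the gene. Promoters matched for 6 of the 8 recorded pumps; Abcc3 and Abcc5 were not matched. Capitals mark matches, on either strand, to a fixed set of short motifs.
Abcc2, chr1:252613625-252613924, plus strand: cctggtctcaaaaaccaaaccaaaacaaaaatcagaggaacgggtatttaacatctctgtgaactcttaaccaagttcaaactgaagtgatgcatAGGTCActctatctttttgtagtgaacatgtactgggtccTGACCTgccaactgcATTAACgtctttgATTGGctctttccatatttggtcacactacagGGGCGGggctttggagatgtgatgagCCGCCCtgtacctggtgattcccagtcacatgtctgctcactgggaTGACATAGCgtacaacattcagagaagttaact
Abcc6, chr1:105637846-105638145, minus strand: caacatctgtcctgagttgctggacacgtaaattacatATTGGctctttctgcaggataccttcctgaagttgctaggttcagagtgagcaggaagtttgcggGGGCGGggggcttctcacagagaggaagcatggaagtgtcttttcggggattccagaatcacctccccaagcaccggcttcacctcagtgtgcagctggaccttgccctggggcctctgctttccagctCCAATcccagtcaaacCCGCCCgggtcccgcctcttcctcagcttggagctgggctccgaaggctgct
Abcc1, chr10:1162318-1162617, minus strand: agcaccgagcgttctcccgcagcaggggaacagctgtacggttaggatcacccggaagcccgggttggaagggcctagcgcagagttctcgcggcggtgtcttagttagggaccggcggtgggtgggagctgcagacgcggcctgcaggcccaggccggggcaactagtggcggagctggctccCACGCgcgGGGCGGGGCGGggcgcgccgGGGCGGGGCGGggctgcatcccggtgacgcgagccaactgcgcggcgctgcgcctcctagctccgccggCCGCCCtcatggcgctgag

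The Abcc2 promoter had a GC content of 44.7% with 5 CpG dinucleotides, that of Abcc6 57.0% with 9, and that of Abcc1 73.7% with 37, against medians of 51.7% and 7 over 33465 promoters of the same length. Among the other pumps, Abcb1a had 53.7% and 10 CpG, Abcg2 68.0% and 29, and Abcc4 75.3% and 41. The 3 pumps higher in untreated liver (Abcb1a, Abcc2 and Abcc6) had a lower GC content than the 3 others with a matched promoter. Among those 3 others, the direction of Abcc4 between the tissues was not resolved. The interval of its log2 difference, given below, includes differences in both directions. Whether reads of the neighbours Abcb4 and Abcb1b fall into the Abcb1a record was not tested. Their promoters had GC contents of 74.3% and 58.3%, with 35 and 15 CpG. The order by tissue is a description of 6 promoters and takes the Abcb1a promoter for that record.

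In the printed Abcc2 window, TGACNNNGC, the core of the antioxidant response element, matched once, with its first base at position 18 after the start; 12.1% of all promoters held it. The HNF1 half-site GTTAAT, held by 7.44% of promoters, matched once, and the nuclear receptor half-site AGGTCA, held by 16.2%, matched at 2 places. The Abcc2 window also held the CCAAT box, found in 37.5% of promoters, once and the GC box GGGCGG, found in 33.1%, at 2 places. The Abcc6 window held each of these boxes at 2 places. The Abcc1 window held GGGCGG at 5 places, where 2 pairs of neighbours share a base, and once GCGTG, the core of the xenobiotic response element, which 29.7% of promoters held. TATAAA, held by 14.2% of promoters, was also searched and matched in none of these 3 windows. A match is a string of letters and was not tested as a binding site.

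In untreated rats, the pumps divided by tissue. Of the 6 tested, 5 differed between liver and marrow at an adjusted p under 0.05 (limma-voom, Benjamini-Hochberg over 10071 genes), 3 higher and 2 lower in liver. Abcc2 and Abcc6 passed the count filter through their liver libraries alone, so their calls could only be higher in liver. The background was high: 66.1% of all tested genes were called, 32.8% higher and 33.4% lower in liver. The libraries of the 2 tissues did not overlap for 5 of the 6 tested pumps, against 59.7% of all tested genes. Overlap was judged on CPM scaled within each tissue, like the levels printed below, whereas fold differences used both tissues scaled together. In whole tissue, fewer cells of a type and less RNA per cell cannot be told apart, here and in every comparison below.

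Abcc2 encodes MRP2, the canalicular exporter of bilirubin glucuronides and glutathione conjugates. Its record (ENSRNOG00000046727, chromosome 1, position 263554453 on the unnamed build of the table) stood at 327, 299, 400 and 435 CPM in liver controls 1 to 4. In marrow controls it had 5 counts, all in replicate 2, and in NDEA marrow 9 counts, all in replicate 3. With the 8 control libraries scaled together, the pooled level in liver was 1548 times that in marrow. The 95% exact Poisson interval from the marrow counts was 663 to 4768, which covers counting error only. The limma-voom call of Abcc2 (adjusted p = 6.51e-09) came from a separate fit and could only be higher in liver.

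Abcc6 encodes MRP6, a liver transporter whose loss causes the calcifying disease pseudoxanthoma elasticum. Its record (ENSRNOG00000028781, chromosome 1, position 101959540) stood at 150, 145, 139 and 196 CPM in liver controls and had 0 counts in all 8 marrow libraries. A floor of 3 counts over the 4 marrow controls made it at least 1119-fold higher in untreated liver. The limma-voom call of Abcc6 (adjusted p = 2.07e-09) came from a separate fit and, as for Abcc2, could only be higher in liver.

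Abcb1a encodes a rat P-glycoprotein, which exports bulky hydrophobic drugs. Its record (ENSRNOG00000008012, chromosome 4, position 22133521) stood at 315, 532, 369 and 346 CPM in liver controls and at 45.7, 38.6, 31.7 and 24.3 CPM in marrow controls. Liver was 13.8-fold higher, a log2 difference of 3.79 (SE 0.26, adjusted p = 5.61e-09). In the table this record lies directly between Crot and Rundc3b, whereas RefSeq on GRCr8 places Abcb4, the phospholipid exporter of bile, and Abcb1b, the other rat P-glycoprotein, beside Abcb1a in the same interval. Whether reads of these near copies fall into the record was not tested.

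Abcg2 and Abcc5 had the opposite order. Abcg2 encodes BCRP, which exports urate, porphyrins and many drugs, and its record (ENSRNOG00000007041, chromosome 4, position 88832178) stood at 33.9, 19.6, 49.8 and 40.6 CPM in marrow controls and at 7.34, 7.35, 11.4 and 12.2 CPM in liver controls. The level in liver was 0.333 times that in marrow (log2 difference -1.59, SE 0.39, adjusted p = 0.00205). Abcc5 encodes MRP5, an exporter of cyclic nucleotides, and its record (ENSRNOG00000029178, chromosome 11, position 84396033) stood at 19.3, 40.2, 49.1 and 46.5 CPM in marrow controls and at 1.41, 7.35, 5.77 and 2.95 CPM in liver controls. The lowest Abcc5 value in marrow was in the shallowest library, control 1, and still lay above all 4 liver controls. The level in liver was 0.112 times that in marrow (log2 difference -3.16, SE 0.57, adjusted p = 0.00017).

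Abcc1 (ENSRNOG00000022305, chromosome 10, position 549883) had 0 counts in all 8 liver libraries and 0.838, 1.76, 4.83 and 3.75 CPM in marrow controls. With a floor of 3 counts over the 4 liver controls it was at least 18.0-fold higher in marrow; it did not reach the count filter of this comparison. Abcc4 (ENSRNOG00000010064, chromosome 15, position 103696557), an exporter of bile salts and cyclic nucleotides, was the tested pump whose tissues overlapped. It stood at 2.97, 8.05, 5.77 and 5.53 CPM in liver controls and at 6.29, 9.17, 5.80 and 6.26 CPM in marrow controls. The log2 difference of Abcc4 was -0.17 with a 95% interval of -1.22 to 0.88 (adjusted p = 0.774), which includes a difference of 1 in the lower direction. Its sign turned without liver control 1 (0.14) or without marrow control 2 (0.01).

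Abcc3 encodes MRP3, the basolateral exporter of glucuronides, which is known to increase in liver when bile flow is blocked. Its record (ENSRNOG00000002948, chromosome 10, position 82047863) had 5 counts in liver control 1, 18 counts in liver NDEA 4 and 0 counts in the other 14 libraries, and was tested in no comparison. Over the 4 marrow controls, 0 counts allow a level of up to 0.169 CPM, and over the 4 marrow NDEA libraries up to 0.149 CPM.

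**Figure D1:**
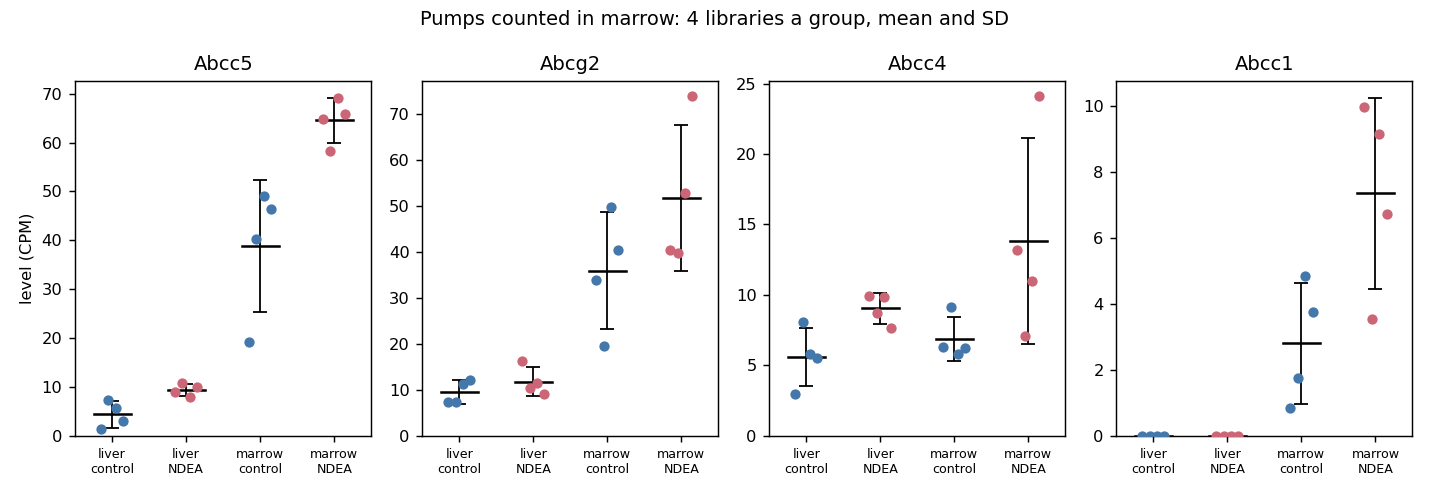
Levels in CPM, scaled within each tissue, of Abcc5, Abcg2, Abcc4 and Abcc1 in the 4 libraries of each group; points are libraries, and the line and bars are the mean and SD. Abcc5 lies between 58.2 and 69.2 CPM in NDEA marrow, above every marrow control, while Abcc1 is at 0 in all 8 liver libraries.

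After NDEA, none of the 6 pumps tested in liver was called at an adjusted p under 0.05 (limma-voom, 9668 genes), against 6.61% of all tested genes. At an unadjusted p under 0.05 there were 3, Abcb1a, Abcc2 and Abcc5, against a background of 18.7%. The 2 groups did not overlap for 1 of the 6, Abcc5, against 12.5% of all tested genes. The estimate was above 0 for 4 pumps and below 0 for Abcc2 and Abcc6.

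Of the canalicular pumps, Abcc2 was lower with NDEA in its estimate, at 212, 251, 289 and 324 CPM in NDEA livers against the 299 to 435 CPM of the controls. Its groups overlapped through control 2 and NDEA 4. The mean was 365 ± 63.3 CPM in controls and 269 ± 48.3 CPM with NDEA (SD, n = 4 each). The estimated level with NDEA was 0.739 times the control level (log2 fold change -0.44, SE 0.14, 95% interval -0.73 to -0.15), with an unadjusted p of 0.00488 and an adjusted p of 0.0648 by limma-voom. Without liver control 2 the estimate was -0.53 (adjusted p = 0.0239) and without liver NDEA 4 it was -0.53 (adjusted p = 0.0312), so the call depended on which libraries entered.

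The Abcb1a record stood at 491, 485, 516 and 526 CPM in NDEA livers. These values were close together, with a mean of 504 ± 19.5 CPM, while the controls had a mean of 390 ± 96.9 CPM (SD, n = 4 each). Liver control 2, at 532 CPM, lay above all 4 NDEA libraries, and the other 3 controls lay below them. The estimate was 1.32-fold (log2 fold change 0.40, SE 0.13, 95% interval 0.14 to 0.67), with an unadjusted p of 0.00469 and an adjusted p of 0.0629. Without liver control 2 it was 0.56 (adjusted p = 0.00168), and with scaling by library totals it was 0.52 (adjusted p = 0.0152), so this call too depended on the libraries and the scaling.

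Control 2 also had the highest mitochondrial share of the liver controls, 20.6%, within the range of the NDEA livers; the other 3 controls had 16.2% to 17.9%. With this share as a covariate the log2 estimate of Abcb1a was -0.04 (adjusted p = 0.977), that of Abcc2 -0.37 (adjusted p = 0.576) and that of Abcc5 0.30 (adjusted p = 0.954). The number of genes called in liver was 148 in that fit, against 639 without the covariate. Every NDEA liver lay above the other 3 controls in this share. Share and treatment thus largely run together, and the fit cannot tell them apart.

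**Figure D2:**
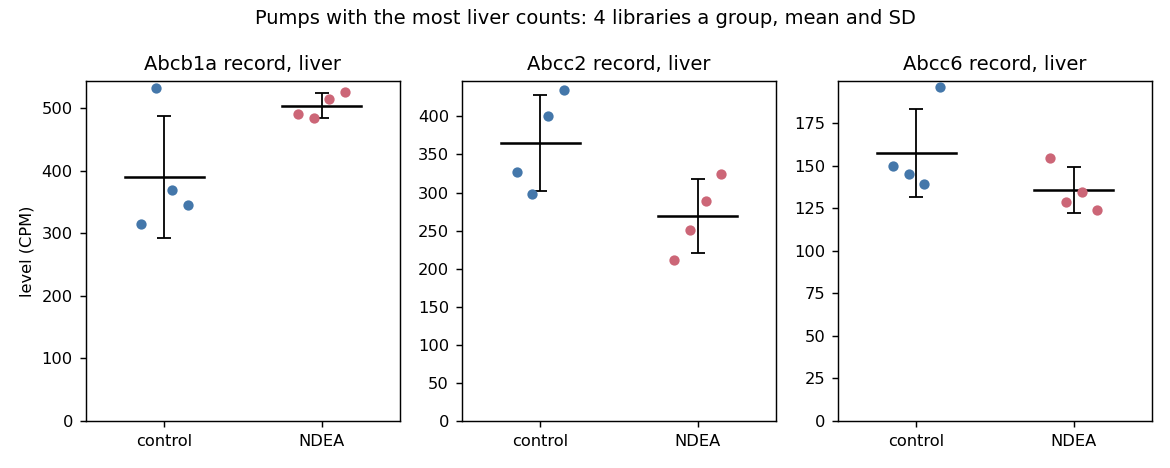
Levels in CPM of the Abcb1a, Abcc2 and Abcc6 records in the 4 control and 4 NDEA liver libraries; points are libraries, and the line and bars are the mean and SD. For Abcb1a, 1 control library at 532 CPM lies above all NDEA libraries, which span 485 to 526 CPM.

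Abcg2, the third canalicular pump, stood at 16.2, 10.4, 11.4 and 8.99 CPM in NDEA livers, spread around the upper controls. The log2 fold change of Abcg2 was 0.32 (95% interval -0.48 to 1.12, adjusted p = 0.714), so an increase of up to 1.12 on the log2 scale lies within the interval. Abcc6 stood at 155, 129, 135 and 124 CPM in NDEA livers, and only control 4, at 196 CPM, lay clear of them. For Abcc6 the log2 fold change was -0.20 (95% interval -0.50 to 0.09, adjusted p = 0.474).

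The basolateral pump Abcc4 stood at 9.93, 8.73, 9.85 and 7.64 CPM in NDEA livers, from 46 to 70 counts per library, and overlapped the controls through control 2. Its log2 fold change was 0.80 with a 95% interval of -0.20 to 1.80 (adjusted p = 0.404). Abcc5 stood at 8.86, 10.8, 8.02 and 9.89 CPM in NDEA livers, all above the highest control, 7.35 CPM. The estimate for Abcc5 was 2.58-fold (log2 fold change 1.37, SE 0.59, 95% interval 0.15 to 2.59), with an unadjusted p of 0.0297 and an adjusted p of 0.2. Its control libraries held 9 to 42 counts and ranged from 1.41 to 7.35 CPM. Without single libraries its estimate ran from 0.86 to 1.71.

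Of the liver marker lists above, 6 of 6 tested cycling-cell markers and 3 of 5 tested stellate-cell and fibroblast markers rose with NDEA. The share over all genes tested in liver was 2.87% called higher and 3.74% called lower. Of 3 tested cholangiocyte markers 0 were called; all 7 cholangiocyte markers summed to between 22.3 and 27.2 CPM in controls and between 27.4 and 50.8 CPM with NDEA, with the defining marker Krt19 at 0 counts in all 8 libraries. The sums of 7 macrophage markers overlapped, at 426 to 528 CPM and 425 to 566 CPM, with Marco called higher and Vsig4 lower. Of 7 tested hepatocyte markers, 3 were called higher (Apoa1, Serpina1 and Ttr) and 3 lower (Alb, Ass1 and Tat). The part of these cells in the pump values was not tested.

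In bone marrow, 0 of the 5 tested pumps were called after NDEA (limma-voom), against 0% of the 9239 genes tested. At an unadjusted p under 0.05 there was 1, Abcc5, against 14.5% of genes, and the limma-trend fit also called 0 genes. The groups did not overlap for 1 pump, again Abcc5, against 5.6% of genes. The estimates of all 5 were above 0, with a median over all tested genes of -0.10. That of Abcb1a was near 0 and changed sign in other fits. Abcc1 met the count filter in every NDEA library but not in every control. No shared direction is read from these estimates.

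Abcc5 stood at 64.9, 58.2, 69.2 and 65.8 CPM in NDEA marrow, a mean of 64.5 ± 4.61 CPM against 38.8 ± 13.5 CPM in controls (SD, n = 4 each). Every NDEA library lay above every control. The estimate was 1.65-fold (log2 fold change 0.72, SE 0.28, 95% interval 0.13 to 1.32), with an unadjusted p of 0.02 and an adjusted p of 0.28. Without libraries NDEA 3 and NDEA 4 it was 0.65 (adjusted p = 0.82).

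Abcg2 stood at 40.6, 39.9, 53.0 and 73.9 CPM in NDEA marrow. The 2 highest values were in NDEA 3 and NDEA 4, and the other 2 lay among the controls. Its log2 fold change was 0.59 (95% interval -0.10 to 1.27, adjusted p = 0.402), and 0.25 without those 2 libraries. Abcc4 stood at 13.2, 7.04, 11.0 and 24.1 CPM in NDEA marrow, where NDEA 4 was highest and NDEA 2 lay within the controls. Its log2 fold change was 0.80 (95% interval -0.32 to 1.92, adjusted p = 0.471), and 0.39 without NDEA 3 and NDEA 4. Fitted with the mitochondrial share as covariate, marrow estimates were 0.23 for Abcg2, 0.47 for Abcc4 and 0.52 for Abcc5 (adjusted p = 0.999 for each).

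Abcc1 stood at 9.97, 3.52, 9.14 and 6.72 CPM in NDEA marrow, from 21 to 44 counts per library, and NDEA 2 lay within the controls. For Abcc1 the log2 fold change was 1.28 with a 95% interval of -0.50 to 3.06 (adjusted p = 0.471), the widest of the 5. The Abcb1a record stood at 42.2, 47.1, 38.4 and 16.0 CPM in NDEA marrow, with NDEA 4 below all controls. Its log2 fold change was 0.01 (95% interval -0.73 to 0.75, adjusted p = 0.99), and its sign turned with library totals (-0.016) and without single libraries (-0.18 to 0.36).

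No gene of the 13 marker lists was called in marrow, but some sums did not overlap between the groups. The sums of 4 megakaryocyte markers were 312 to 536 CPM in controls and 151 to 265 CPM with NDEA, and those of 3 skeletal muscle markers 57.4 to 249 CPM and 11.2 to 21.1 CPM, with 0 of 4 and 0 of 3 called. The sums of 5 erythroid markers overlapped, at 126726 to 194736 CPM and 116267 to 155155 CPM, as did those of 8 neutrophil markers, at 21437 to 31540 CPM and 21605 to 36220 CPM. Their part in the pump values was not tested.

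**Figure D3:**
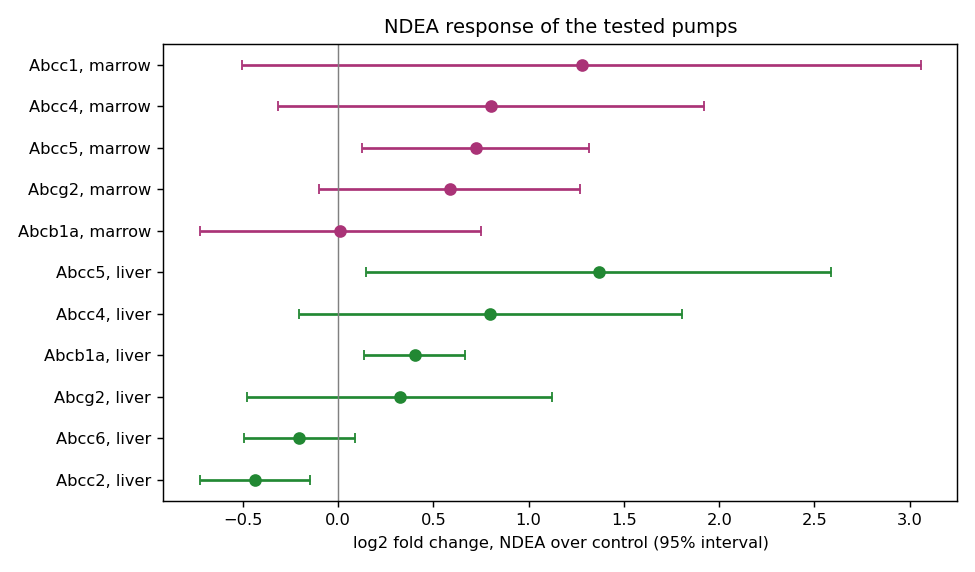
Log2 fold changes of NDEA over control for the 5 pumps tested in marrow and the 6 tested in liver; points are limma-voom estimates and bars are 95% intervals. The intervals of Abcc5 in both tissues and of Abcb1a and Abcc2 in liver lie to one side of 0, and no pump passed the adjusted threshold.

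The effect of NDEA was also compared between the tissues, as the treatment-by-tissue term over all 16 libraries. None of the 7 pumps tested was called, against 2.28% of 11261 genes, and 0 had an unadjusted p under 0.05, against 16.8%. Only 4 of the 7 were also tested within both tissues. The median of this term over all genes tested was 0.32. For Abcb1a the log2 fold change in liver exceeded that in marrow by 0.44 (95% interval -0.38 to 1.26, adjusted p = 0.612). For Abcc5 it exceeded it by 0.69 (95% interval -0.65 to 2.03, adjusted p = 0.633). The differences were 0.02 for Abcc4 (95% interval -1.45 to 1.48) and -0.23 for Abcg2 (95% interval -1.35 to 0.89). Each of the 4 intervals includes differences larger than 1 in at least one direction. For Abcc1, Abcc2 and Abcc6 the term rests on a tissue with few or no counts and is not given.

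Around the pumps, lists of genes of the same detoxification route were also described in liver. The lists below were drawn up for this purpose with earlier results of these data known. Their counts of calls are therefore a description, and no contrast with the pumps is read from them. Of all genes tested in liver, 2.87% rose and 3.74% fell, with a median log2 fold change of 0.01. With library totals in place of trimmed scaling, that median was 0.12 and the split of calls 390 higher and 239 lower, against 277 and 362.

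The first list holds enzymes that make or attach the conjugates that MRP pumps export. Of 15 tested, 7 rose and 0 fell, with a median log2 fold change of 0.32. Gstm1, a glutathione S-transferase, stood at 551 ± 100.2 CPM in controls and 2035 ± 129 CPM with NDEA (SD, n = 4 each; log2 fold change 1.90, SE 0.11, adjusted p = 1.86e-11). Gclc, the catalytic subunit of the enzyme that starts glutathione synthesis, rose by 1.56 on the log2 scale (SE 0.22, adjusted p = 5.15e-05), with 46.9 ± 14.8 CPM in controls and 138 ± 32.1 CPM with NDEA. Gstp1 rose by 3.71 on the log2 scale, Gsta3 by 1.48, Gclm by 0.95 and the sulfotransferase Sult1b1 by 0.62. The seventh, Sult1e1, an oestrogen sulfotransferase, had 0 counts in the liver controls. Taking a floor of 3 counts over the 4 controls, it was at least 63.5-fold higher with NDEA. It passed the count filter through its NDEA libraries alone. Its limma-voom call (adjusted p = 0.0161), counted among the 7, could therefore only be higher. Its call was lost without any 1 of the 4 liver controls, with adjusted p up to 0.103. With the mitochondrial share as a covariate, 4 of the enzymes were called.

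Among the canalicular lipid and bile salt pumps, 0 of 5 tested rose and 1 fell, Abcb11, with a median of -0.62. Abcb11 encodes the bile salt export pump, and it stood at 390 ± 17.7 CPM in controls and 209 ± 26.0 CPM with NDEA (SD, n = 4 each). The level with NDEA was 0.535 times the control level (log2 fold change -0.90, SE 0.12, adjusted p = 1.3e-05). Abcg5 and Abcg8, which form the sterol exporter of bile, had estimates of -0.62 and -0.78 that did not pass (adjusted p = 0.223 and 0.184).

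Over 29 tested genes of the wider ABC family, 1 rose and 2 fell, with a median of -0.12. Besides Abcb11, Abca8a fell (log2 fold change -0.50, adjusted p = 0.0258), and Tap1, which loads peptides for antigen presentation, rose (log2 fold change 0.82, adjusted p = 0.0458). Both were close to the threshold. The Abca8a call was lost without any 1 of liver controls 1, 3 or 4 or liver NDEA 1, 2 or 4, with adjusted p up to 0.0983. The Tap1 call was lost without any 1 of liver controls 2, 3 or 4 or liver NDEA 1, 3 or 4, with adjusted p up to 0.195.

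Among hepatic solute carriers, many of which bring substrates of the pumps into the cell, 1 of 8 tested rose and 2 fell, with a median of -0.38. The organic anion carrier Slco1b2 fell from 2533 ± 249 to 1209 ± 124 CPM (log2 fold change -1.06, adjusted p = 4.83e-08). The bile salt carrier Slc10a1 fell from 716 ± 40.0 to 428 ± 53.6 CPM (log2 fold change -0.75, adjusted p = 4.67e-05). Slc22a8, an organic anion transporter known mainly from kidney, had 0 counts in the liver controls and 3.52 to 11.0 CPM with NDEA. With the same floor it was at least 50.6-fold higher. It too passed the count filter through its NDEA libraries alone, so its limma-voom call (adjusted p = 0.0127) could only be higher. Its call was lost without any 1 of the 4 liver controls, with adjusted p up to 0.0869.

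Of 12 tested regulators of pump genes, 0 rose and 1 fell, with a median of -0.04. Hnf4a, a transcription factor of hepatocyte identity, fell from 349 ± 55.4 to 207 ± 19.9 CPM (log2 fold change -0.75, adjusted p = 0.000429). The receptors and factors best known for inducing pumps were not called: Nr1i2 (PXR) had a log2 fold change of -0.07 (adjusted p = 0.899), Nr1i3 (CAR) 0.62 (adjusted p = 0.346) and Nfe2l2 (NRF2) -0.01 (adjusted p = 0.984). For Nr1i2 and Nfe2l2 the sign of the estimate turned with the scaling by library totals. Of 7 scaffold and trafficking genes, which hold pumps in the membrane, 1 rose, Msn, with a list median of 0.39. Msn encodes moesin and rose by 0.63 on the log2 scale, and its call was lost without any 1 of liver controls 1, 3 or 4 or liver NDEA 2, 3 or 4 (adjusted p up to 0.138).

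In marrow, 0 genes of these 6 lists were called. The median log2 fold change there was 0.30 over 20 tested genes of the wider ABC family and -0.39 over 10 conjugating enzymes. The difference between tissues, called for 2.28% of all genes, was called for the conjugating enzymes Gclc (2.44), Gstm1 (3.23) and Gstp1 (3.79), each given as the log2 fold change in liver minus that in marrow. The median of this term over all genes tested was 0.32. In NDEA marrow, the lowest library held Gclc at 3.36 CPM against a group median of 28.1 CPM. Few genes were called for this term with the mitochondrial share as a covariate, as given in the closing section. For Slc22a8 and Sult1e1 the term rests on 2 and 0 counts in marrow and is not given.

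**Figure D4:**
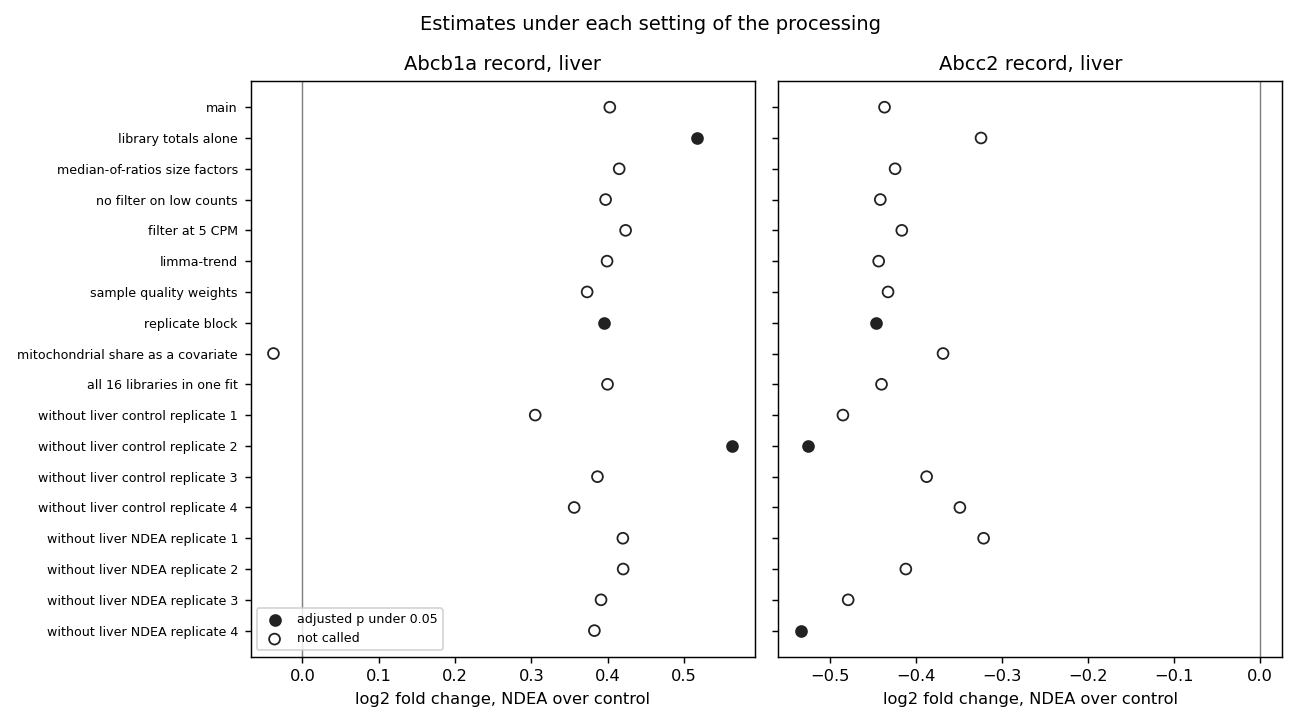
Log2 fold change of NDEA over control in liver for the Abcb1a and Abcc2 records under each setting of the processing; filled points passed an adjusted p under 0.05. The Abcb1a estimate lies between -0.04 and 0.56 and the Abcc2 estimate between -0.53 and -0.32.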

How the data were processed

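RNA was sequenced from liver and bone marrow with a QuantSeq 3′ kit, per the labels' protocols. The authors deposited raw counts of reads per gene, in a table recorded here under the unit "other" because 12 of its 32623 records were broken over lines and had to be rejoined; the rejoined values were whole, and in 16313 records they matched unnamed group totals. For that reason limma-voom was used in place of a count model. The submitters' processing notes name STAR and DESeq2; their versions, the counting tool, the build and the annotation stand as not given in the sources used here. Groups came from the sample labels, 0 columns of per-sample values had no sample, and further unnamed columns were not used.

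Tested genes had 15 counts or more in total and, in 4 or more libraries, the CPM that 10 counts make in the median library. Scaling used trimmed means of M values (trims 0.3 and 0.05), and log2 CPM with a prior of 0.5 counts were fitted in limma 3.58.1 under R 4.3.3. Fits and fold bounds between tissues were scaled over all libraries compared. Printed CPM levels and overlaps of groups were scaled within each tissue. P-values were adjusted by Benjamini-Hochberg over all genes tested. Floors are 3 counts over a group and cover counting error only, since the labels name no molecular identifiers. The method was tested on simulated data. Alternatives were other scalings and filters, limma-trend, sample weights, a replicate block, the mitochondrial share as a covariate, all 16 libraries together and leave-one-out fits, which kept the tested genes of the full comparison. For the tissue difference they cover the 4 pumps tested in both tissues.

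The members and gene lists were chosen with earlier results of these data known. Named genes were all pumps, up to 6 called genes of each list in liver by smallest p, and Abcb11, Nr1i2, Nr1i3, Nfe2l2 and Gclc; genes most like a called pump were to be named, and no pump was called in liver. Sult1e1 and its alternatives were added after its values were seen, as were Abcg5 and Abcg8. Promoters were matched by symbol to RefSeq on GRCr8, with motifs chosen after the table was read and before the search.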

Additional observations from a re-analysis of the deposited data

Results flagged for a closer look

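Of 26 sets of 4 libraries with unequal pump values, 5 held a library far from the other 3. Chance flags about 5% of sets, but that rate says nothing of 4 of these 5, in which the other 3 libraries had 0 counts and any count is flagged. Abcc2 stood at 0.881 CPM in marrow control 2 and at 1.87 CPM in marrow NDEA 3, with 0 counts in the other libraries of each group. Abcc3 stood at 0.781 CPM in liver control 1 and at 2.70 CPM in liver NDEA 4, with 0 counts in the other libraries of each group. Abcc4 stood at 9.17 CPM in marrow control 2, where the next highest control had 6.29 CPM.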

How the results depend on the processing

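In liver, 0 pumps were called in the reported fit, 1 with library totals (Abcb1a, log2 fold change 0.52, adjusted p = 0.0152) and 0 to 2 without single libraries, 2 without control 2 and 1 without NDEA 4. With the mitochondrial share as a covariate, 148 genes were called in liver in place of 639, 1 in marrow in place of 0 and 2 for the tissue difference in place of 257. In that fit Abcb1a turned to -0.038 in liver, and the tissue differences turned to -0.46 for Abcb1a, -0.13 for Abcc4, -0.21 for Abcc5 and 0.33 for Abcg2. Marrow called 2 genes with no filter, 69 with all 16 libraries together and 0 to 323 without single libraries, the 323 without marrow control 3; no pump was among the calls in any marrow fit. For the tissue difference, 116 to 549 genes were called without single libraries (116 without liver control 4, 164 without liver control 3, 549 without marrow control 3), and 89 without marrow NDEA 3 and 4, where Abcb1a turned to -0.032 and Abcg2 to 0.061. Small estimates changed sign in other fits. Nr1i2 was 0.049 with library totals and -0.20 to 0.10 without single libraries. Nfe2l2 was 0.10 with library totals, 0.0028 with median-of-ratios factors, 0.012 with a 5 CPM filter, 0.024 with sample weights, 0.020 with the mitochondrial covariate and -0.13 to 0.074 without single libraries. Abcb1a in marrow was -0.016 with library totals, -0.038 with limma-trend, -0.042 with all libraries together and -0.18 to 0.36 without single libraries. The tissue difference of Abcc4 was -0.051 with median-of-ratios factors, -0.054 with no filter, -0.065 with limma-trend and -0.29 to 0.34 without single libraries, and that of Abcg2 -0.42 to 0.11. Abcc4 in untreated tissues ran from -0.39 to 0.14. The causes were not tested. In untreated rats 5 pumps were called under each setting run except with no filter, where Abcc1 was tested too and 6 were called. The median over all genes moved from -0.02 to -0.34 with library totals in that comparison, and from 0.32 to 0.19 with median-of-ratios factors in the tissue difference. Abcc3, Abcc4 and Abcc5 had 0 to 70 counts per liver library, so small changes were not detectable there.

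The labels do not say whether replicate numbers pair the libraries. Deviations of same-numbered libraries correlated at -0.01 to 0.01 in liver, -0.01 to 0.06 in marrow and -0.02 to 0.04 between untreated tissues. Not every library correlated best with its own number. These correlations cannot exclude a shared rat or cage. With a replicate block, 2 pumps were called in liver (Abcb1a 0.39, adjusted p = 0.0411; Abcc2 -0.45, adjusted p = 0.0122), 289 genes and 0 pumps in marrow, and the tissue difference of Abcc4 was -0.20.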
